A study of Mus musculus with 12 samples.

Results

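The interleukin-1 (IL-1) family genes described here are Il1a, Il1b, Il1rn, Il18, Il18bp and Il1rap, taken by symbol from the deposited expression table. All 6 were found among its 25192 genes, and all 6 passed the filter on low counts. The table holds poly(A) RNA sequencing of RAW264.7, a mouse macrophage-like cell line, in 12 libraries. Of these, 4 came from untreated control cells (Con), and 4 came from cells kept for 24 h with lipopolysaccharide (LPS) at 1 µg/mL (Mod). In the other 4, ferulic acid (FA), a phenolic compound of plant cell walls, was given first (10 µM, 12 h) and was followed by the same LPS treatment. No library had ferulic acid without LPS. Whether a group's 4 libraries came from separate cultures is not given in the labels, so each p-value is relative to the variation of these libraries, some or all of which could be technical.

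IL-1α and IL-1β bind the receptor IL1R1, which then recruits the accessory protein IL1RAP and signals through MyD88 and the IRAK kinases to NF-kB. The receptor antagonist IL-1Ra, the product of Il1rn, occupies the same receptor without recruiting IL1RAP. IL-18 uses its own receptor pair and is neutralised in solution by IL-18 binding protein, the product of Il18bp. IL-1β and IL-18 are made as precursors that caspase-1 cleaves. Macrophages are a main source of these cytokines, and LPS acting on Toll-like receptor 4 is the classical inducer of Il1b.

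Total counts ran from 32548423 to 49961581 per library. Values per library are given below as CPM, reads scaled to library size and by TMM (a correction for the makeup of each library), and levels of different genes are compared only as FPKM, which is also per gene length. Control and LPS-treated libraries separated on the first principal component (77.8% of the variance). On the second (6.81%) ferulic acid plus LPS libraries 1 and 4 scored -44.0 and -76.6, whereas libraries 2 and 3 of that group scored 25.6 and 7.56 and the LPS libraries 12.5 to 41.3. Results of that group are therefore given with and without each pair. Of 10 macrophage markers, 8 in control and 9 in each LPS-treated group reached 1 FPKM, and Mertk was at or near 0 in each group. Mean Cd14 went from 255 FPKM in control to 493 with LPS and Cd68 from 616 to 650, whereas Lyz2 went from 2781 to 245 and Csf1r from 273 to 18.2. The summed level of the 10 was 3967 to 4339 FPKM in control cells, 1477 to 1702 with LPS and 1212 to 1840 with both agents. These FPKM carry no TMM factor, so changes between groups depend on the scaling. The marker Spi1, for example, went from 87.2 FPKM in control to 67.7 with LPS, but from 155 to 224 CPM. Of the 7 lists for other cell types, the T cell list summed to 1.70 to 2.10 FPKM in control and 9.18 to 9.77 with LPS and 6.23 to 9.57 with both agents, nearly all of it from Lck, with Cd3d, Cd3g and Trac at 0.0188 FPKM or less on average. The neutrophil list reached 0.330 FPKM in the highest control library, 3.43 with LPS and 5.11 with both agents, mostly from S100a8, with Ly6g at 0.0112 FPKM or less on average. The part of these genes in the results was not tested. In bulk RNA, fewer cells making a transcript and less of it per cell cannot be told apart.

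Il1a, Il1b, Il1rn, Il18 and Il18bp rose with LPS against control, the comparison that shows the response to LPS itself. The transcripts of both IL-1 ligands went from a few reads to about 210 CPM or more in each library. Il1rn rose about 292-fold and Il18 about 8.45-fold, both from a level already measurable in every control library, and with library size scaling these folds were 157 and 4.53. Il18bp reached at most 1.36 CPM in any library and its call was lost under several settings. Il1rap, the accessory chain of the receptor, did not pass the test. Of the 6 genes 5 were called higher and 0 lower at an adjusted p under 0.05, where the test called 73.8% of the 14065 genes tested (35.6% higher, 38.3% lower). In 4 of them, Il1a, Il1b, Il1rn and Il18, the 2 groups did not overlap, which held for 75.3% of all genes (35.5% higher, 39.8% lower). The median log2 fold change of the 6 was 5.63, against -0.10 over all genes tested. With library size scaling 2467 of all genes were called higher and 8305 lower, in place of 5003 and 5381. A call was therefore common, and the size of each change is given below.

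Il1b, Il1a and Il1rn had the largest rises with LPS of the genes described here. The 250 bases upstream of their RefSeq start sites are shown, with those of Il18 for comparison. Capitals mark matches, on either strand, to any of 7 motifs, which are kappaB (the NF-kB consensus), AP-1 (TGANTCA), C/EBP (TTGCNNAA), the PU.1 core (GAGGAA), CRE (TGACGTCA), the TATA box (TATAAA) and ISRE (the interferon-stimulated response element). Sequences are RefSeq's in build GRCm38.p6, an earlier build than the GRCm39 named in the submitters' processing notes, and run 5′ to 3′ along the strand of the gene. Il1a lies on the minus strand (chr2:129309973-129310222), as does Il1b (chr2:129371140-129371389). Il1rn lies on the plus strand, and the window shown precedes the first of its 3 RefSeq starts (chr2:24336610-24336859). Il18 lies on the plus strand (chr9:50554450-50554699).
Il1a: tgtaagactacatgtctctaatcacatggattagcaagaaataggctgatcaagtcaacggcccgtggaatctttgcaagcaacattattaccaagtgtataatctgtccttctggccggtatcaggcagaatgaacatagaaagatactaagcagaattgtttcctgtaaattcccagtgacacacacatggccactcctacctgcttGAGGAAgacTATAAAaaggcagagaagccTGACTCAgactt
Il1b: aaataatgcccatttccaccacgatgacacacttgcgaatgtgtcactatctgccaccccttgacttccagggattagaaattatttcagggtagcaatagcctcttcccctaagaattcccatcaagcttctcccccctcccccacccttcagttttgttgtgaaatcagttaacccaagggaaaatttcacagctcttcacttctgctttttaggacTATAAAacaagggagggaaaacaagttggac
Il1rn: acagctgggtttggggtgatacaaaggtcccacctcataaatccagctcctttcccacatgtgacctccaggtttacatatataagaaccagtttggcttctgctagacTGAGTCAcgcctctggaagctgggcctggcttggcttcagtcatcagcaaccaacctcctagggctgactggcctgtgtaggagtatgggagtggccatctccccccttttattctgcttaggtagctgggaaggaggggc
Il18: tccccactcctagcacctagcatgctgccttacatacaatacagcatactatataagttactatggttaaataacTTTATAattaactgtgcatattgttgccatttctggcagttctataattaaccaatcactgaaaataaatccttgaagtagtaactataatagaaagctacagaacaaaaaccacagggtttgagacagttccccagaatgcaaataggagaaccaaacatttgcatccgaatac

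The windows of Il1a and Il1b each held a TATA match in the direction of transcription, which starts 32 and 31 bases before the start site. A TATA match on either strand was present in 12.4% of the 32817 promoter windows of the same length. The window of Il18 held TATA letters on the opposite strand, 175 to 170 bases upstream, and that of Il1rn held none. Il1a held an AP-1 match 12 to 6 bases upstream, and Il1rn held an AP-1 match 141 to 135 bases upstream of its first start, where 6.75% of windows held it. A PU.1 core stood 41 to 36 bases before the Il1a start (23.3% of windows). No kappaB match (7.25% of windows) lay in the 250 bases upstream of any of the 8 starts of the 6 genes, and the other Il1rn starts, 8431 and a further 80 bases downstream, held no match to any motif. The gene-level counts do not separate transcripts from the Il1rn starts. Matches are letters in these windows and not measured binding sites.

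Among the ligands, Il1a (IL-1α, which is active as its precursor and can act from the nucleus or the cell surface) had 2, 0, 1 and 3 reads in control libraries 1 to 4. In the LPS libraries it stood at 289, 320, 333 and 210 CPM, and in ferulic acid plus LPS libraries at 435, 333, 321 and 598 CPM. Every LPS-treated library was thus far above every control library. Pooled over libraries and scaled by library size and TMM, the reads were 11375-fold higher in LPS than in control (95% exact counting interval 5226 to 30999). The fitted log2 fold change was 13.31 (SE 0.41, edgeR adjusted p = 5.8e-14). With 6 control reads in all, and a single read in the third control library worth 0.0138 CPM, the size of this ratio is less certain than the SE shows, and with library size scaling the pooled ratio was 6140.

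Il1b, which encodes the secreted, caspase-1-dependent ligand, had 3, 2, 11 and 0 reads in control libraries 1 to 4. It stood at 967, 942, 1045 and 675 CPM in the LPS libraries. The ferulic acid plus LPS libraries had 1396, 1087, 949.8 and 1659 CPM. Again no LPS-treated library came near a control library. The pooled ratio of LPS to control was 13442 (counting interval 8277 to 23518; 7256 with library size scaling), and the fitted log2 change was 13.68 (SE 0.43, adjusted p = 8.9e-14), the 5th highest of all genes tested, while Il1a ranked 8th. In the control libraries with no read, the limit that a count of 0 allows (3 reads) was 0.0560 CPM for Il1a in library 2 and 0.0565 CPM for Il1b in library 4. An annotated antisense transcript, Il1bos, shares 25 of the 1907 exon bases of Il1b and had 118 reads over the 4 LPS libraries against 120554 for Il1b. Likewise Gm14023, which overlaps 222 of the 1974 exon bases of Il1a on the opposite strand, had 19 reads there against 38257 for Il1a.

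Il18, the ligand that drives interferon-γ production by lymphocytes, was already expressed in control libraries at 9.17, 11.9, 10.1 and 10.0 CPM. It stood at 92.7, 98.7, 86.0 and 70.9 CPM with LPS. With ferulic acid plus LPS it was at 151, 96.3, 101 and 168 CPM. The groups with and without LPS did not overlap. Its log2 fold change with LPS was 3.08 (SE 0.19, adjusted p = 4.6e-10).

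Among the antagonists, Il1rn stood at 8.46, 7.59, 8.63 and 8.98 CPM in control libraries 1 to 4. It stood at 2153, 2364, 2780 and 2530 CPM with LPS. With ferulic acid plus LPS the values were 1460, 2108, 1808 and 1568 CPM. All LPS libraries were above all ferulic acid plus LPS libraries, and both groups were far above control. The log2 fold change with LPS was 8.19 (SE 0.20, adjusted p = 8.2e-15).

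Il18bp, the soluble IL-18 antagonist, had 94 reads in all in control cells, 133 with LPS and 75 with both agents. It stood at 0.774, 0.224, 0.330 and 0.245 CPM in control and at 0.653, 0.731, 1.36 and 1.07 CPM in LPS libraries, and these ranges overlap. With ferulic acid plus LPS it stood at 0.448, 0.472, 0.346 and 1.18 CPM. Its log2 fold change with LPS was 1.28 (SE 0.54, adjusted p = 0.0430). The call was lost without control library 2, 3 or 4 (adjusted p of 0.115, 0.0969 and 0.111), without LPS library 3 or 4 (0.126 and 0.0813), with the replicate number as a block (0.0709), with no filter on low counts (0.0701) and with library size scaling (0.506). On the opposite strand Numa1 shares 80 of its 3026 exon bases and had 39450 control reads against 6890 with LPS, and the part of this overlap in the Il18bp counts was not tested.

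Il1rap stood at 4.78, 4.91, 6.57 and 6.21 CPM in control and at 8.45, 9.12, 5.23 and 4.61 CPM in LPS libraries. LPS libraries 1 and 2 were above all control libraries and LPS library 4 was below them. With ferulic acid plus LPS it stood at 11.6, 7.45, 7.12 and 10.5 CPM. The log2 fold change with LPS was 0.28 (95% interval -0.23 to 0.79, adjusted p = 0.302), and it turned to -0.63 (adjusted p = 0.0189) with library size scaling, which lowers the median of all genes from -0.10 to -0.99. A direction for Il1rap therefore depended on the scaling. Gm20319, on the opposite strand of 552 of its 11360 exon bases, had 2 control reads and 0 with LPS.

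**Figure D1:**
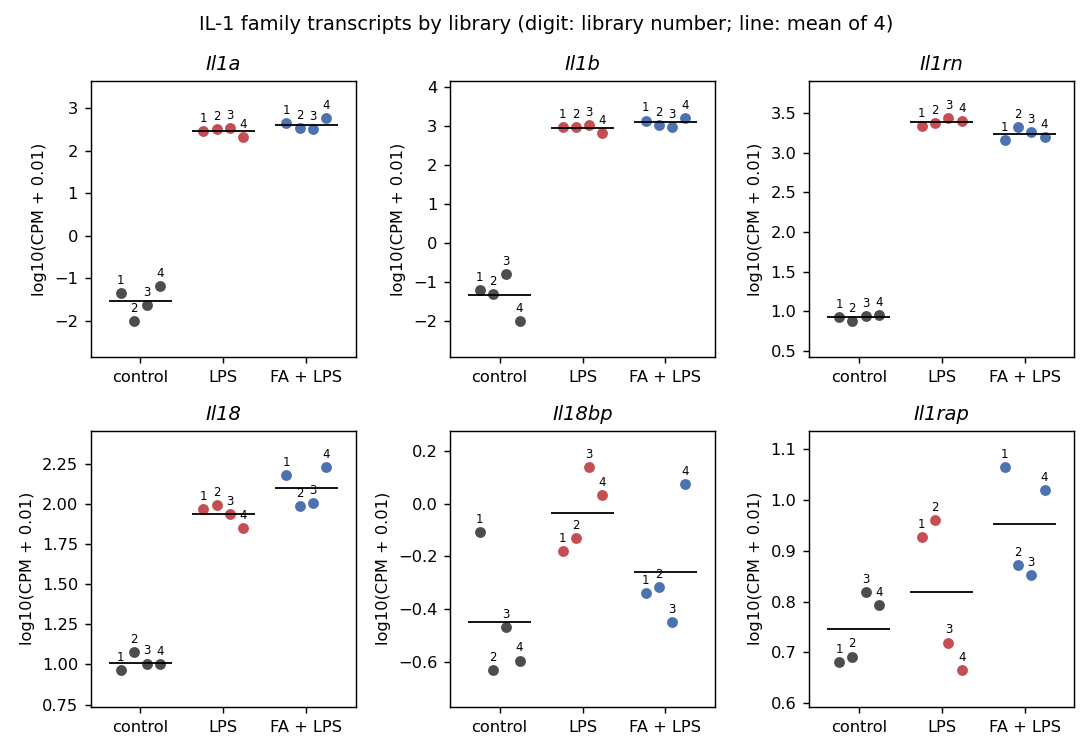
CPM of the 6 genes by library, as log10(CPM + 0.01), for the 3 groups. Each point is a library with its number, lines are means of the 4 log values, and axes differ between panels. Il1a, Il1b, Il1rn and Il18 are higher in each LPS-treated library than in each control library, whereas Il18bp and Il1rap overlap between control and LPS.

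Per gene length, Il18 was the most abundant of the 6 transcripts in control cells, at 15.2 ± 1.48 FPKM (SD, n = 4). Il1rn followed at 2.31 ± 0.197 FPKM and Il1rap at 0.751 ± 0.123 FPKM, with no overlap between these neighbours in the order. Il18bp (0.198 FPKM), Il1b (0.0474 FPKM) and Il1a (0.0204 FPKM) came last, and the ranges of neighbours among these overlapped. With LPS the order changed to Il1b (387 ± 69.5 FPKM), Il1rn (363 ± 56.5), Il1a (119 ± 23.6), Il18 (68.6 ± 7.91), Il1rap (0.486 ± 0.143) and Il18bp (0.260 ± 0.101). The ranges of Il1b and Il1rn overlapped there, as did those of Il1rap and Il18bp. The FPKM divide by 5535 bases for Il1rn, 1907 for Il1b and 1974 for Il1a, the bases of all annotated exons. In reads, Il1rn had 331712 over the LPS libraries, Il1b 120554 and Il1a 38257. The order of Il1b and Il1rn therefore depends on these lengths, and the lengths of the transcripts present were not measured. With ferulic acid plus LPS the order was the same, but Il1b (534 ± 95.2 FPKM, lowest library 403) no longer overlapped Il1rn (259 ± 76.9, highest library 365). The Il1rn and Il1a (170 ± 36.8) ranges overlapped instead. The 6 genes took 0.00377% of all counted reads in control cells, a share that was 0.306% with LPS and 0.289% when ferulic acid came first.

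Whether pretreatment altered the LPS response was read from ferulic acid plus LPS against LPS alone. None of the 6 genes passed, where edgeR called 0.284% of the genes tested (0.0853% higher, 0.199% lower). At an unadjusted p under 0.05 stood 3 of them, Il1a, Il1rn and Il18, against 23.0% of all genes. DESeq2 called 2, Il1rn and Il18, among 920 of all genes, and limma on log2 FPKM called 0, with Il18bp and Il1rap tested there only when no filter was used. The median log2 fold change of the 6 was 0.45, against 0.02 over all genes tested. The ligands Il1a, Il1b and Il18 and the accessory chain Il1rap had higher means with ferulic acid, and the antagonists Il1rn and Il18bp had lower means. The other family ligands tested did not share 1 direction. Il33 was at 0.41, but Il36a was at -0.48 and Il36g at -0.81 on the log2 scale, and edgeR called none of them.

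Il1rn went from a mean of 2457 ± 265 CPM with LPS to 1736 ± 288 CPM with ferulic acid plus LPS (SD, n = 4 each). Its log2 fold change was -0.50 (SE 0.15, 95% interval -0.81 to -0.19, unadjusted p = 0.00312, edgeR adjusted p = 0.0974). In CPM the 4 libraries of each group did not overlap, the single such gene of the 6, where 7.02% of all genes did not overlap (2.67% wholly higher, 4.36% wholly lower). In FPKM, which carry no TMM factor, ferulic acid plus LPS library 2 (365) lay inside the LPS range of 297 to 429. The values furthest from the LPS mean were those of libraries 1 and 4, at -0.74 and -0.64 on the log2 scale, with libraries 2 and 3 at -0.21 and -0.44.

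Il18 had means of 87.1 ± 12.0 and 129 ± 36.0 CPM in LPS and ferulic acid plus LPS libraries, with a log2 change of 0.57 (SE 0.18, 95% interval 0.19 to 0.94, adjusted p = 0.106). Libraries 1 and 4 of the ferulic acid plus LPS group were 0.80 and 0.96 above the LPS mean on the log2 scale, whereas libraries 2 and 3 were 0.16 and 0.22 above it. Il1a stood at 288 ± 55.4 and 422 ± 128 CPM (log2 fold change 0.55, SE 0.21, adjusted p = 0.151). Its 4 ferulic acid plus LPS libraries were above the LPS mean, and 2 of them above the highest LPS library. Il1b stood at 908 ± 161 and 1273 ± 318 CPM (0.49, 95% interval -0.02 to 0.99, adjusted p = 0.231), with 3 libraries above the highest LPS library.

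Il1rap (0.42, 95% interval -0.09 to 0.93, adjusted p = 0.305) and Il18bp (-0.66, 95% interval -1.82 to 0.49, adjusted p = 0.478) did not pass either. For Il18bp each of these libraries held 11 to 55 reads. Across the 4 genes with a higher mean, ferulic acid plus LPS libraries 1 and 4 were the highest of all 8 LPS-treated libraries.

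**Figure D2:**
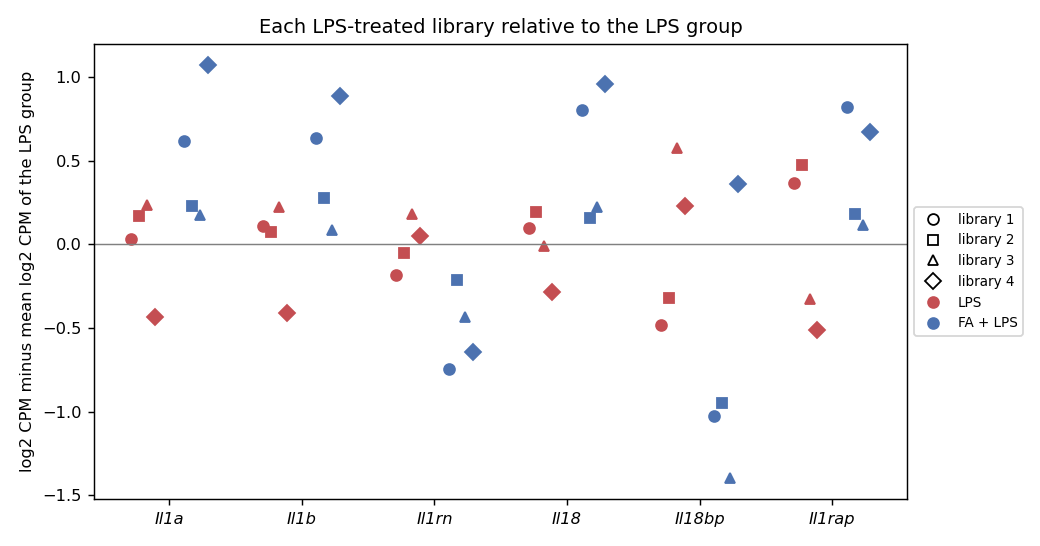
Log2 CPM of each LPS-treated library minus the mean log2 CPM of the LPS group, for the 6 genes. Points are libraries, colours the groups and shapes the library numbers. Ferulic acid plus LPS libraries 1 and 4 lie highest for Il1a, Il1b, Il18 and Il1rap, and all 4 of that group lie lowest for Il1rn.

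The differences were larger with libraries 1 and 4 of the ferulic acid plus LPS group than with libraries 2 and 3 for each gene but Il18bp. The pairs were formed by their place on the second principal component, where libraries 1 and 4 lie furthest from the LPS group, so more calls without libraries 2 and 3 follow from that choice and are no added support. With libraries 2 and 3 left out, edgeR called 5 of the 6 genes: Il1a (log2 fold change 0.83, adjusted p = 9.2e-04), Il1b (0.74, 0.00389), Il18 (0.86, 1.2e-04) and Il1rap (0.68, 0.0417) higher, and Il1rn (-0.71, 3.2e-04) lower. In that fit 5664 of the 15008 genes tested were called. Without libraries 1 and 4, 0 of the 6 were called, at 0.18 for Il1a, 0.17 for Il1b, 0.18 for Il18, 0.10 for Il1rap and -0.33 for Il1rn (adjusted p from 0.478 to 0.938). Of the 15060 genes tested there, 7 were called. Il18bp stood at -0.25 without libraries 2 and 3 and at -1.23 without libraries 1 and 4. The sign of each of the 6 values was the same in every alternative that gave a value. Leaving out library 2 alone gave 3 calls (Il1a, Il1rn and Il18), and leaving out library 3 alone gave 2 (Il1rn and Il18). In these fits 2670 of 14485 and 1415 of 14501 genes tested were called.

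**Figure D3:**
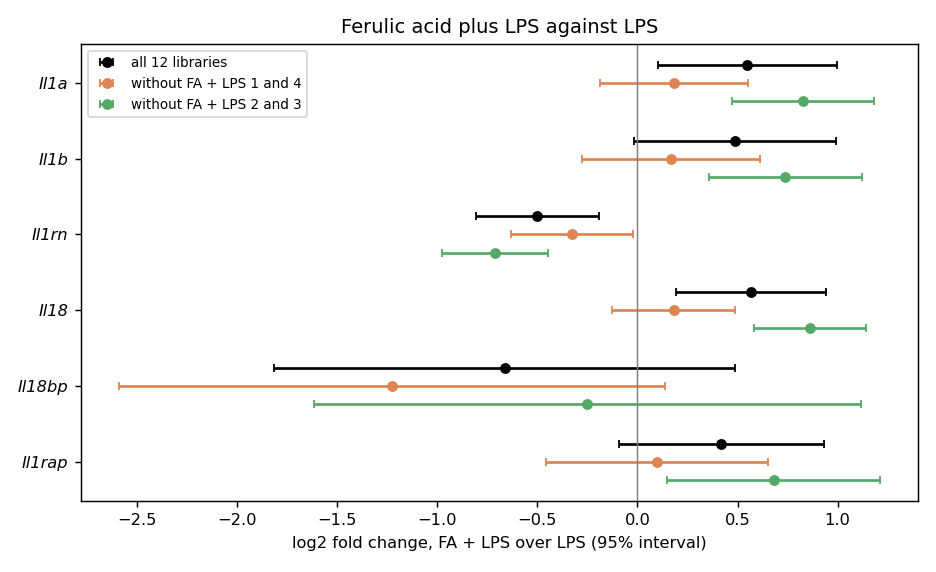
Log2 fold change of ferulic acid plus LPS over LPS for the 6 genes with 95% intervals. Each gene has 3 estimates: all 12 libraries, libraries 1 and 4 of the pretreated group left out, or its libraries 2 and 3 left out. Points are edgeR estimates. Il1rn is at -0.50, -0.33 and -0.71 and Il18 at 0.57, 0.18 and 0.86 in these fits.

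The balance of antagonist to ligand transcripts was also read within each library, where scaling between libraries has no part. The size of such a ratio depends on the gene lengths used for FPKM. Il1rn FPKM divided by the sum of Il1a and Il1b FPKM was 0.595, 0.651, 0.700 and 0.993 in LPS libraries 1 to 4. It was 0.277, 0.516, 0.495 and 0.242 in ferulic acid plus LPS libraries 1 to 4. Every library with ferulic acid was below every LPS library, with group means of 0.382 ± 0.143 and 0.735 ± 0.178 (SD, n = 4 each). This ratio combines genes chosen with results of these data known, so it is given without a test. It joins a gene with a lower mean to 2 genes with higher means, so its separation is no added support. How often ratios of other genes separate was not counted. In control libraries it ran from 18.1 to 70.1, on 2 to 12 ligand reads per library, so the antagonist transcript was in excess there and the size of the excess is uncertain. The Il1b to Il1a ratio was close to constant, at 3.05 to 3.46 with LPS and 2.87 to 3.38 with both agents.

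Il18 FPKM divided by Il18bp FPKM was 34.8 to 156 in control libraries. It was 185 to 417 with LPS and 421 to 989 when ferulic acid preceded LPS. The 3 ranges did not overlap, and here too the share of other gene ratios that separate was not counted. The denominator rests on 11 to 55 reads per library, and the lowest ferulic acid plus LPS value (421, library 4) lay next to the highest LPS value (417, library 1).

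**Figure D4:**
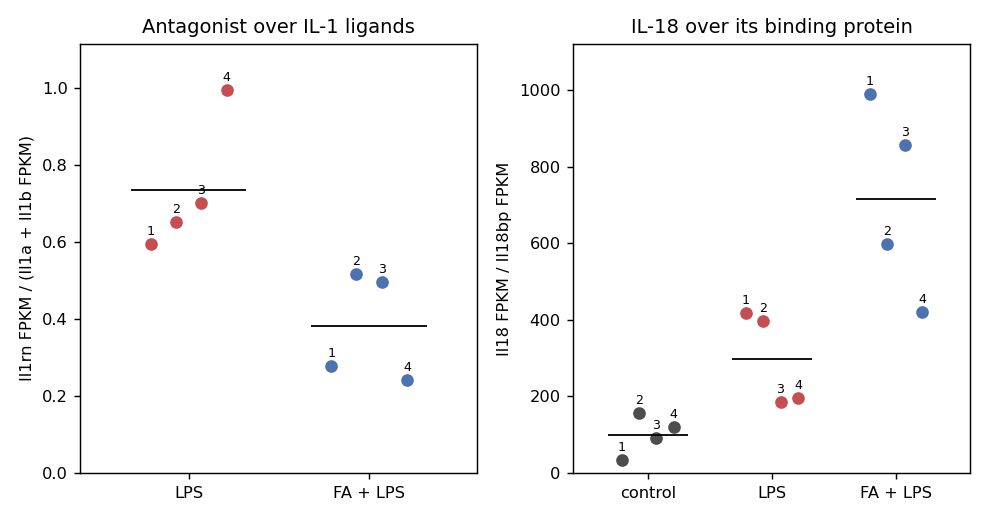
Ratios of FPKM within each library: Il1rn over the sum of Il1a and Il1b in LPS and ferulic acid plus LPS groups (left), and Il18 over Il18bp in all 3 groups (right). Points are libraries with their numbers and lines are means of 4. The left ratio is 0.595 to 0.993 with LPS and 0.242 to 0.516 with ferulic acid plus LPS.

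Ferulic acid plus LPS against control shares its control libraries with the LPS comparison and its treated libraries with the one above. It called 5 of the 6 genes higher, where 73.3% of all genes were called (35.8% higher, 37.5% lower). Of the 6, 5 did not overlap, as did 68.2% of all genes, and their median log2 fold change was 5.67 against -0.07 over all genes. With library size scaling 2536 of all genes were called higher and 8268 lower, in place of 5038 and 5277. The log2 fold changes were 13.86 (SE 0.41) for Il1a, 14.16 (SE 0.44) for Il1b, 7.69 (SE 0.19) for Il1rn and 3.65 (SE 0.20) for Il18, each with an edgeR adjusted p of 8.4e-11 or less. Il1rap was called at 0.70 (SE 0.24, adjusted p = 0.0153), with each ferulic acid plus LPS library above the highest control library, but with library size scaling it was at -0.22. It also lost the call without ferulic acid plus LPS library 1 (0.57, adjusted p = 0.0532) and without libraries 1 and 4 (0.38, adjusted p = 0.202). Il18bp did not pass (0.61, 95% interval -0.55 to 1.78, adjusted p = 0.323), and with library size scaling it was at -0.32.

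Genes with the most similar profile over the 12 libraries were sought by Pearson's r of log2 CPM, with 7987 candidates whose mean was at least 3 on that scale. The groups differ so much that r is above 0.9 for 1958 genes with Il1a and 1909 with Il1rn. Therefore r within groups (of deviations from group means) is given beside it. For Il1a and Il1b this r includes control libraries with 0 to 3 and 0 to 11 reads, so counting error weighs on it. Between Il1a and Il1b it was 0.00946, against 0.982 for plain r over the 8 LPS-treated libraries. For Il1a the nearest were Csf2, the growth factor GM-CSF (r = 0.999, within groups 0.619), and Ptgs2, the inducible cyclooxygenase (0.999, 0.569). For Il1b they were the G protein regulator Rgs16 (0.998, 0.758) and Il6 (0.998, 0.563). For Il1rn they were Procr, the protein C receptor (r = 0.9996, within groups 0.843), and Hdc, histidine decarboxylase (r = 0.9995, within groups 0.812). Il18 was nearest to the Ras-family gene Rras2 (0.998, 0.962) and to Mocs2, of molybdenum cofactor synthesis (0.998, 0.888). Il1rap was nearest to Yipf5 (within groups 0.90) and Smim15 (0.857), at 0.936 and 0.913 over all libraries, and Il18bp to Arl5b (0.862, 0.792) and Rilpl1 (0.848, 0.773).

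Of 55 other genes of the pathway, 50 were found, the other 5 are not analysed here, and 45 passed the filter and were tested. With LPS 23 of these were called higher and 17 lower, with a median log2 fold change of 0.51, and with library size scaling 15 higher and 24 lower with a median of -0.39. Over all genes tested 35.6% were called higher and 38.3% lower, with a median of -0.10 that was -0.99 with library size scaling, and the counts by list below are to be read against these. Among the other family ligands, Il36a, Il33 and Il36g had 0 reads in the 4 control libraries and were called higher with LPS. Il36a had 3497 LPS reads and was at least 2080-fold higher, Il33, an alarmin, had 1202 reads and was at least 715-fold higher, and Il36g had 732 reads and was at least 435-fold higher, each against a limit of 3 reads over the control group, and with library size scaling these bounds were 1122, 386 and 235. Of the 6 receptors found, 3 had too few reads to test. Il1r1, the receptor of both IL-1 ligands, had 8 reads over the control libraries and 0 over each LPS-treated group, and the IL-18 receptor chain Il18r1 had 10, 4 and 4 reads. The IL-36 receptor Il1rl2 had 0, 3 and 12 reads and the antagonist Il36rn 0, 8 and 4, so these 4 genes were not tested. Il18rap, the partner of Il18r1, was at 25.6 ± 2.55 CPM in control and 25.5 ± 3.89 CPM with LPS and did not pass (adjusted p = 0.990). With library size scaling Il18rap was called lower (-0.90, adjusted p = 8.3e-04). The IL-33 receptor Il1rl1 was called higher (1.01, SE 0.16, adjusted p = 2.3e-05), and with library size scaling it was at 0.11 and did not pass. Sigirr, an inhibitory receptor of the family, fell (-0.90, SE 0.21, adjusted p = 9.7e-04).

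Of 12 receptor signalling genes 4 were called higher and 7 lower with LPS, and with library size scaling 2 and 8. Tab3 (-2.38, SE 0.33), Tab2 (-1.79, SE 0.16) and the kinase Map3k7 (-1.75, SE 0.20), which encode parts of the TAK1 complex, fell. Tab1, another part, did not pass (-0.26, adjusted p = 0.148), but with library size scaling it was called lower (-1.16, edgeR adjusted p = 2.8e-05). The kinase Irak2 (1.63, SE 0.19) and the ubiquitin ligase Peli1 (1.49, SE 0.19) rose, and Irak3, an inhibitory IRAK, was called higher (0.75, SE 0.19) but stood at -0.14 with library size scaling. Of 13 processing and release genes 5 were called higher and 8 lower, and with library size scaling 3 and 8. Casp4, caspase-11 (3.63, SE 0.22), the membrane rupture gene Ninj1 (2.19, SE 0.20) and the pore gene Gsdmd (1.27, SE 0.13) rose. The ATP receptor P2rx7 (-2.09, SE 0.14), the sensor Nlrc4 (-2.04, SE 0.39) and the calpain Capn2 (-1.64, SE 0.14) fell. Pycard, which encodes the adaptor ASC that links inflammasome sensors to caspase-1, had 2 reads over the control libraries, 12 with LPS and 0 with both agents, and was not tested.

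Of 14 transcription and mRNA decay genes 10 were called higher and 1 lower with LPS, and with library size scaling 7 and 6. Nfkbiz, an NF-kB cofactor (4.45, SE 0.18), and the mRNA decay genes Zfp36 (3.72, SE 0.15) and Zc3h12a (3.64, SE 0.15) rose, and Zfp36l1 (-1.72, SE 0.15) fell. With ferulic acid plus LPS against control 22 of the 45 genes were called higher and 16 lower, and with library size scaling 14 and 23. Il33, Il36a and Il36g had 1566, 2330 and 415 reads, at least 951-, 1415- and 252-fold above control (511, 761 and 136 with library size scaling). Nfkbiz (4.79, SE 0.18), Nfkbia (3.39, SE 0.13), Casp4 (3.80, SE 0.22), Zfp36 (3.29, SE 0.15), Ninj1 (1.92, SE 0.19), Peli1 (1.80, SE 0.19) and Casp1 (1.38, SE 0.18) rose, of which Nfkbia encodes an NF-kB inhibitor and Casp1 the IL-1β convertase. Il1rl1 (1.29, SE 0.16), Irak2 (1.22, SE 0.19) and Irak3 (0.56, SE 0.19) were called higher but with library size scaling stood at 0.38, 0.35 and -0.30 and did not pass. P2rx7 (-2.33, SE 0.15), Tab3 (-1.98, SE 0.32), Nlrc4 (-1.82, SE 0.39), Zfp36l1 (-1.58, SE 0.15), Irak4 (-1.38, SE 0.23), Capn2 (-1.26, SE 0.13), Tab2 (-1.24, SE 0.16) and Sigirr (-0.78, SE 0.21) fell. Against LPS, ferulic acid plus LPS changed none of the 45 by edgeR's call, with 13 at an unadjusted p under 0.05, as were 23.0% of all genes, and 4 called by DESeq2, which called 920 of all genes. The smallest p per list were those of Nek7, a partner of NLRP3 (0.72, SE 0.18, adjusted p = 0.0797), Zc3h12a (-0.53, SE 0.14, adjusted p = 0.0847), Tab2 (0.55, SE 0.16, adjusted p = 0.0969), Il36g (-0.81, SE 0.35, adjusted p = 0.190) and Il1rl1 (0.28, SE 0.16, adjusted p = 0.286).

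**Figure D5:**
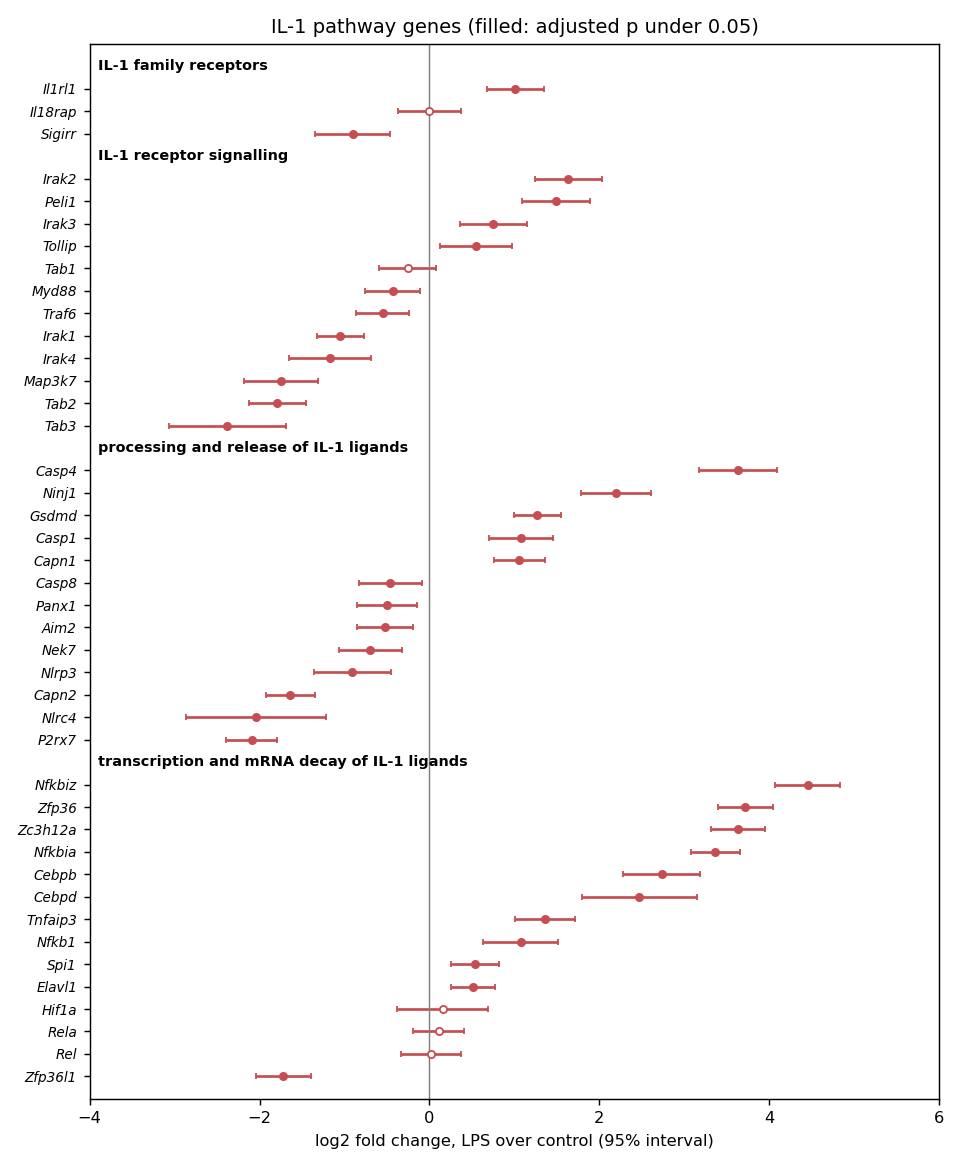
Log2 fold change of LPS over control with 95% intervals for the 42 tested pathway genes that had control reads, by list. Filled points have an edgeR adjusted p under 0.05. With library size scaling, not drawn here, Irak3, Tollip, Spi1, Elavl1, Rela, Rel and Hif1a are below 0. Nfkbiz is then at 3.55 in place of 4.45, and Casp4 at 2.73 in place of 3.63.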

How the data were processed

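The authors' deposited table gives, per gene and library, read counts and FPKM values. Counts were whole numbers, and the deposited FPKM fitted 1 whole-number length per gene for 100% of genes. Per the submitters' processing notes, the build was GRCm39 and the tools included HISAT2 2.2.1, fastp 0.23.4 and featureCounts 2.0.6; the annotation and strand setting are not given in the sources used here, so reads of genes overlapping on opposite strands cannot be told apart.

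Counts of all 12 libraries were fitted by group with edgeR 4.0.16 in R 4.3.3 (TMM, filterByExpr, quasi-likelihood test), which kept 14065 of 25192 genes; the 11127 left out held 0.0421% of reads. Benjamini-Hochberg adjusted p-values over all genes tested were called under 0.05, and standard errors and 95% intervals come from that fit. Intervals and limits from counts cover counting error only. Alternatives used DESeq2 1.42.0, limma 3.58.1 on log2(FPKM + 1) and log2(FPKM + 0.1), other scalings and filters, a replicate block and left-out libraries. Scripts were tested on simulated data. Total counts were 32548423 to 49961581 per library, and between replicates the chi-square per gene was at least 9.18, so none agreed within sampling noise.

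The 6 genes and the gene lists were chosen with earlier results of these data known. In each comparison and pathway list the text names up to 3 called genes with the largest change in each direction, the gene with the smallest p where none was called, and genes with too few reads to test. Il18rap was named after its values were seen. Tab1 with LPS and some genes in the caption of the pathway figure also fall outside this rule. So do Il33 and Il36a for ferulic acid plus LPS against LPS. The 2 genes most correlated with each of the 6 over the 12 libraries are also named. Overlaps come from GENCODE M21 (GRCm38), used for names, overlap and a check of lengths only. For all 6 genes the length implied by the FPKM equalled the bases of all their exons there.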

Additional observations from a re-analysis of the deposited data

Results flagged for a closer look

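Il18bp in ferulic acid plus LPS library 4 stood at 1.18 CPM, far from the other libraries of its group, of which the nearest was at 0.472 CPM. The gap was 0.848 of the range of the group, above Dixon's 95% critical value for 4 samples. It was the single value that stood out among 18 sets of gene and group and 9 sets of ratio and group. Chance flags about 1 in 20 groups.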

How the results depend on the processing

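Il1a, Il1b, Il1rn and Il18 kept direction and call against control in 96 of 96 values from 24 alternatives with LPS. Il18bp with LPS lost its call with library size scaling (0.40), no filter (1.25) and limma without a filter (0.076), and ranged from 1.06 to 1.83 when a library was left out. Il1rap turned to -0.63 with library size scaling and -0.24 in limma without a filter. Against control, ferulic acid plus LPS gave -0.32 and -0.044 for Il18bp and -0.22 and -0.091 for Il1rap under these settings, and Il1rap 0.38 without libraries 1 and 4 and 0.57 to 0.81 with a library left out.

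For ferulic acid plus LPS against LPS, edgeR called 40 genes. The count was 2 with library size scaling, 719 with no filter, 71 with a 10 CPM filter, 0 with only the 2 groups compared (2082 at an unadjusted p under 0.05), 7 without libraries 1 and 4, 5664 without libraries 2 and 3, 5, 3 and 1 in limma (pseudocount 1, 0.1, and 1 with no filter) and 920 in DESeq2, and 0 to 2670 with a library left out. Of the 6 genes, 1 was called with no filter (Il18, 0.57), 2 in DESeq2 (Il18, 0.57, and Il1rn, -0.50), 5 without libraries 2 and 3 (Il1a 0.83, Il1b 0.74, Il1rn -0.71, Il18 0.86, Il1rap 0.68) and 0 to 3 with a library left out, when Il1a ranged from 0.33 to 0.66, Il1rn from -0.62 to -0.43 and Il18 from 0.41 to 0.67. Pathway genes called were 3, 4, 21 and 0 to 9 in the same order. The cause was not tested.

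Same-numbered libraries did not deviate together (r from -0.203 to 0.0838). The labels do not say whether the numbers pair the samples. A low r shows only that no shared deviation was seen, so it cannot settle pairing. With the replicate number as a block, 0 genes were called for ferulic acid plus LPS against LPS, and Il18bp with LPS stood at 1.33 (adjusted p = 0.0709). Depth limits Il18bp and the control levels of Il1a and Il1b.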
